A study of Homo sapiens with 9 samples.

Results

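The genes described here encode the machinery that copies DNA in S phase, together with the E2F factors that transcribe it. They are 57 of the 25084 gene rows of the deposited table, matched by symbol to a list of such genes, and all 57 passed the filter on low values. RNA was sequenced from LAN5, a long-established line of human neuroblastoma in which MYCN is amplified. Small interfering RNAs (siRNAs), which direct the degradation of a matching transcript, were introduced by nucleofection, a form of electroporation, and total RNA was taken 72 h later. The 3 groups of 3 libraries received a control siRNA (siCTR), an siRNA named siMYCN_2 in the titles (siMYCN) or an siRNA named siHAND2_3 (siHAND2). Each target was thus represented by a single siRNA in a single cell line. The labels do not say whether libraries of a group came from separate cultures, so p-values measure the spread between these libraries, which may be technical.

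A replication origin is licensed in G1, when the origin recognition complex, CDC6 and CDT1 load the MCM2 to MCM7 helicase onto DNA. In S phase the kinase CDC7 with DBF4 acts on the loaded helicase, CDC45 and the GINS complex join it, and the sliding clamp PCNA, opened by replication factor C, holds the polymerases on the template. E2F factors, released when cyclin-dependent kinases act on RB, transcribe many of these genes, and MYC-family proteins are known to promote entry into S phase in neuroblastoma. In RNA from whole cultures, fewer cells in S phase and less RNA per cell cannot be told apart.

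Promoter sequences were available for 48 of the 57 genes (RefSeq, build GRCh38.p14), and the 250 bases before each start were searched on both strands. Those of E2F1, of the genes with the largest called falls (UNG and POLD2) and of the next largest called rises after E2F8 (CLSPN and RFC3) are shown because these genes are described in detail below. Whether the letters bear on the expression values was not tested. E2F8 is not in the promoter table. Capitals mark the motifs searched, namely the E2F-type octamers TTTCCCGC, TTTGGCGC, TTTCGCGC and TTTGCCGC, the E-box CACGTG bound by MYC-family proteins, CATCTG of the type bound by HAND proteins, the CCAAT box, and TTTGAA of the cell cycle homology region. All run 5′ to 3′ on the gene's strand and stop before the first base annotated as an exon of any transcript. E2F1 lies on the minus strand at chr20:33686386-33686635. The first UNG start has chr12:109097347-109097596 before it, plus strand, and the second UNG start chr12:109097922-109098117, inside the gene. POLD2 is at chr7:44123669-44123798, minus strand, RFC3 at chr13:33817899-33818068, plus strand, and CLSPN at chr1:35769979-35770228, minus strand.
E2F1: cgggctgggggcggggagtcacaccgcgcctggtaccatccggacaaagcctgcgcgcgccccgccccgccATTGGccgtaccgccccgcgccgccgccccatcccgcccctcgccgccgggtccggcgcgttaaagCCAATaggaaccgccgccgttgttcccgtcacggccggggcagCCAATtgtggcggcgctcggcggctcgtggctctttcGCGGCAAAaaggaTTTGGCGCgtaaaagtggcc
UNG, first start: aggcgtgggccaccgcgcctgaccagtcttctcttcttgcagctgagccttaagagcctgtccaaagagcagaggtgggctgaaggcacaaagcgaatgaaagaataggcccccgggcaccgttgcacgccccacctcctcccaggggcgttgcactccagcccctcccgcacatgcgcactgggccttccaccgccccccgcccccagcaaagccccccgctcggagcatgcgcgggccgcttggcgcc
UNG, second start: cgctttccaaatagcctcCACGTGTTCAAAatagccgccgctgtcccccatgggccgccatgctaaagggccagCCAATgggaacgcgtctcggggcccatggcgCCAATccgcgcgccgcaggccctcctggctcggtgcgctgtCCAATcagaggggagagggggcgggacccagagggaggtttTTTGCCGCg
POLD2: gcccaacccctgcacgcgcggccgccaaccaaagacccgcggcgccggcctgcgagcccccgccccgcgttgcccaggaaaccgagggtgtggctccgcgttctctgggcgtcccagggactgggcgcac
RFC3: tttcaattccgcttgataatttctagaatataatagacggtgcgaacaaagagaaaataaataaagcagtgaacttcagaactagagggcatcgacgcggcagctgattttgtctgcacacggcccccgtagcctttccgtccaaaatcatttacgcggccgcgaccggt
CLSPN: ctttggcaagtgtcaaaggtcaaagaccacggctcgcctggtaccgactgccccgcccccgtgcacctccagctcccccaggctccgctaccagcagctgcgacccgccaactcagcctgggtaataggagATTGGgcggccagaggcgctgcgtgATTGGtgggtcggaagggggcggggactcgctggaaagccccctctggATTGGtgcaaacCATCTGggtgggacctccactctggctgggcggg

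The E2F1 stretch held a TTTGGCGC match that began 20 bases before the start, a TTTGCCGC match at 33 bases on the opposite strand, and CCAAT matches at 179, 113 and 70 bases. Before the second UNG start stood CACGTG at 232 bases, directly followed by TTTGAA on the opposite strand at 226 bases, and TTTGCCGC at 63 bases. A further CACGTG at 47 bases lay in the part not printed. The first UNG stretch held none of these letters. The matches of RFC3 (TTTCCCGC at 55 bases) and POLD2 (CCAAT at 68 bases), both on the opposite strand, also fell in parts left out because another transcript has an exon there, and CLSPN held CATCTG at 34 bases and CCAAT at 119, 94 and 46 bases.

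An E2F-type octamer stood in the 250 bases before the start of 19 of the 48 genes, 39.6%, against 3.4% of all 27305 gene symbols in the promoter table, coding or not. TTTCCCGC stood in 18.8% of the 48 against 1.7% of all, and TTTGGCGC likewise in 18.8% against 0.681%. The rarer octamers TTTCGCGC and TTTGCCGC were found in 6.25% against 0.542% and in 4.17% against 0.586%. CCAAT, present in 62.5% of the replication genes, stood in 37% of all. The E-box CACGTG stood in 7 of the 48 (CHAF1A, FEN1, MCM2, MCM7, RPA1, TIMELESS and UNG), 14.6% against 7.73%, while CATCTG was as common in them as in all symbols, 14.6% in each. TTTGAA stood in 4.17% against 16.1%. Such matches describe letters in a window and not binding.

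The siRNA targets were first checked as a test of the labels. MYCN was at 1848, 1894 and 1786 CPM (the deposited unit, which puts libraries of unequal depth on 1 scale) in siCTR, at 1338, 1245 and 1285 in siMYCN, and at 898, 969 and 877 in siHAND2. MYCN thus fell to 70.0% of the siCTR mean with its own siRNA, and to 49.6% with the siRNA against HAND2. HAND2 was at 516, 499 and 489 CPM in siCTR, 588, 557 and 568 in siMYCN, with 268, 267 and 280.4 in siHAND2, where it fell to 54.2%. Any difference between siHAND2 and siMYCN in the replication genes therefore stands beside a lower MYCN level in siHAND2, at 70.9% of that in siMYCN.

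Depth, estimated from the smallest step between CPM values, was 21.1 to 32.7 M assigned reads per library. The third siHAND2 library stood apart, with a chi-square per degree of freedom of 8.88 and 8.13 against its group partners, where other pairs of a group gave 2.90 to 5.76. Neuroblast markers (7 of 8 tested, with INSM1 below 1 CPM) summed to 1979 to 2116 CPM in siCTR, 2520 to 2603 in siMYCN and 2067 to 2174 in siHAND2. Of the 7, 6 were higher in siMYCN, beside 24.5% of all genes. The siHAND2 sum joined opposite changes, with DBH at 49.4% and TH at 48.6% of the siCTR mean, GAP43 at 173% and STMN2 at 194%. These 4 were called in siHAND2, beside 29.9% of all genes, and the other 3 were not. Fibroblast and stromal markers summed to 107 to 114, 130 to 139 and 260 to 297 CPM, with 4 of 6 tested higher in siMYCN (24.5% of all genes) and 5 of 6 in siHAND2 (18.1%), and COL1A1 below 1 CPM throughout. Endothelial, leukocyte and epithelial markers summed to at most 4.1 CPM. Mitochondrial transcripts took 0.72 to 0.88% of CPM. The part of these differences in the results below was not tested.

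Summed over the 57 genes, replication transcripts took 6335, 6194 and 6347 CPM in siCTR, 6216, 6149 and 6160 in siMYCN, with 6607, 6431 and 6477 in siHAND2. The first siMYCN sum lay between siCTR values and the others below them, and all 3 siHAND2 sums were above every other library. Per kilobase of the MANE Select transcript, in siCTR, PCNA led with 254 CPM per kb, followed by MCM7 (222), MCM3 (120) and MCM2 (91.9). At the other end stood CLSPN (5.86), E2F2 (5.22), GINS4 (4.40) and E2F8 (1.73 CPM per kb). The median coefficient of variation of a gene between libraries of a group was 3.02% in siCTR, 3.49% in siMYCN and 4.48% in siHAND2.

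With siMYCN, replication genes moved in both directions and by small amounts. The largest falls were UNG, which removes uracil from DNA, to 78.4% of the siCTR mean, and POLD2, a subunit of DNA polymerase delta, to 82.5%. The largest rises were E2F8, a repressor-type E2F, to 136% and CLSPN (claspin, a fork protection and checkpoint adaptor) to 123%. By limma on log2(CPM + 1), with p-values adjusted over all 14495 genes tested and a threshold of 0.05, 19 of the 57 genes passed, 33.3%, beside 35.9% of all genes. Of these, 6 rose, beside 24.5% of all genes tested, and 13 fell, beside 11.4%. The median difference was -0.05 over the 57 and 0.06 over all genes, and 21 of the 57 estimates were positive. Groups did not overlap for 10 genes above siCTR (33.4% of all genes) and 19 below (16.1%).

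The split between directions depended on how the libraries were scaled. With median-ratio rescaling, which brought the median of all genes to 0.01 and the share of higher among all calls from 68.3% to 51.2%, 3 replication genes rose and 24 fell. After quantile normalization the counts were 3 and 22, with 49.3% of all calls higher. With replicate number as a block, POLD1 (adjusted p = 0.035) and PRIM1 (adjusted p = 0.037) also passed as lower. The count of falls was 7 without the first siCTR library, 7 without the third, 7 without the first siMYCN library and 6 without the third. In these fits 28.7% to 30.6% of all genes were called, in place of 35.9%. The calls of UNG, POLD2, RFC5, WDHD1, CLSPN, TIMELESS and E2F8 held under every alternative and every left-out library.

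With siHAND2 the called genes were fewer and mostly higher. E2F8 rose to 139.5% of the siCTR mean, RFC3, a clamp loader subunit, to 121%, and CDC7, the kinase that fires origins, to 117%. POLD2 fell to 78.7% and CDT1, the licensing factor, to 84.6%. In all, 12 of 57 passed the threshold, 21.1%, beside 29.9% of all genes. The 9 rises stand beside 18.1% of all genes and the 3 falls beside 11.8%. The median was 0.05 over the 57 and 0.04 over all genes, with 39 positive estimates. Groups did not overlap for 18 genes above (25.8% of all genes) and 3 below (16.6%), beside 42.4% of all genes in either direction.

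Here too the counts moved with the processing. The rises numbered 5 after median-ratio rescaling, with 47.1% of all calls higher in place of 60.6%, and 6 after quantile normalization, with 47.8%. They numbered 14 with replicate number as a block, which added ATAD2, CDC45, HELLS, MCM5 and PRIM2. The block also raised the share of all genes called from 29.9% to 35.1%. Over all 14495 genes the rises numbered 2630 in the main fit, 2001 and 1981 after the rescalings, and 3143 with the block. Without the first or the second siCTR library there were 5 rises, and without the second 1 fall. These fits called 23.1% and 21.3% of all genes. Leaving out the third siHAND2 library gave 9 rises and 4 falls, with 29.85% of all genes called. MCM6, CDC7, RFC3, POLD2, NASP and E2F8 held their calls under every alternative and every left-out library.

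Both contrasts use the same siCTR libraries, so their values are given side by side and no overlap is read from them. CLSPN, E2F8 and POLE rose in both, CDT1, DSCC1 and POLD2 fell in both, and 0 genes were called in opposite directions. The direct contrast of siHAND2 with siMYCN is the test of whether the groups differ. In it 18 of 57 genes passed, 31.6%, beside 26.9% of all genes tested, of which 17 were higher in siHAND2 (11.4% of all genes) and 1, TIMELESS, was lower (15.5%). The median was 0.07 over the 57 and -0.01 over all genes, and 44 estimates were positive. Groups did not overlap for 25 genes above (17.1% of all genes) and 4 below (21.6%).

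Over all 14495 genes the main fit called 1650 higher and 2242 lower. The direct counts of replication genes were 18 and 1 after median-ratio rescaling, beside 1974 and 2003 of all genes. After quantile normalization they were 20 and 1, beside 2076 and 1924, so they did not turn with the scaling. They fell to 8 higher without the first siMYCN library, 9 without the third and 10 without the first siHAND2 library, and to 11 in a fit of these groups alone or without the intensity trend. Of all genes, these fits called 20.2%, 22.5%, 27.4%, 23.4% and 23.6% in turn, in place of 26.9%. Without the third siHAND2 library the direct counts were 15 and 2, with 24.45% of all genes called. Without the first siMYCN library TIMELESS lost its call. By limma in that fit, 16 of the 57 were higher and 2 lower at an unadjusted p below 0.05. All genes were not counted at that threshold. RFC3, UNG, HELLS, CDC7, PRIM2 and MCM7 held their calls under every alternative and every left-out library.

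**Figure D1:**
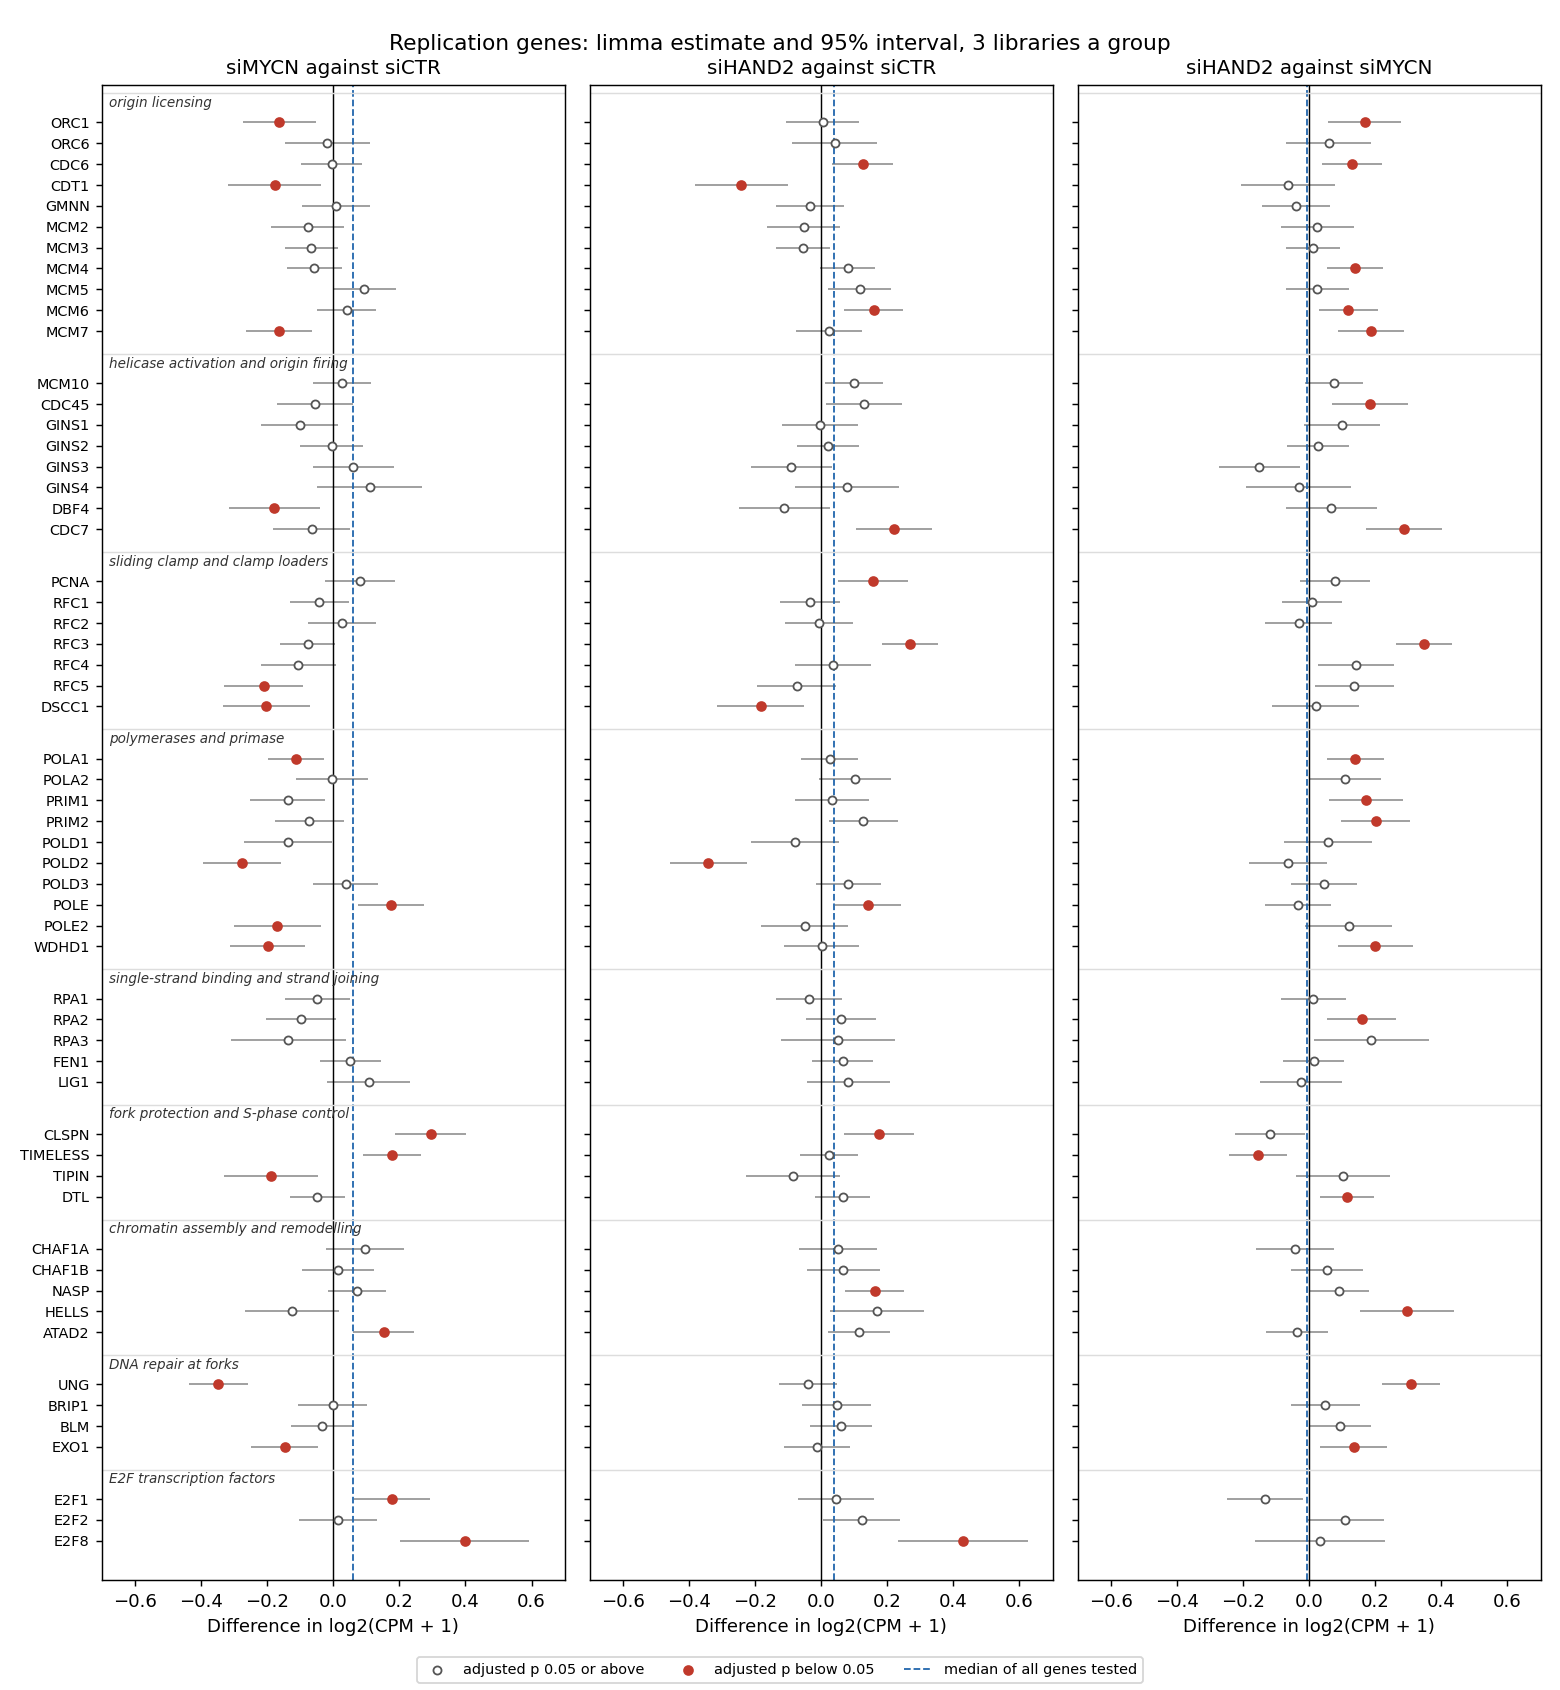
Differences in log2(CPM + 1) for the 57 replication genes (points, limma estimates; bars, 95% intervals; n = 3 libraries a group), grouped by role, in 3 panels, the first and second for each knockdown against siCTR and the third for siHAND2 against siMYCN. Filled points have an adjusted p below 0.05 and the dashed line is the median of all genes tested. UNG lies furthest left in the first panel at -0.35, E2F8 furthest right in the first and second at 0.40 and 0.43, and 17 of the 18 filled points of the third panel lie right of 0.

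No replication gene reached a difference of 0.5 on the log2(CPM + 1) scale in any contrast with all libraries in the fit, while 4.82% of all genes did in siMYCN, 5.57% in siHAND2 and 5.88% in the direct contrast. E2F8 in siHAND2 passed 0.5, at 0.53, when the third siCTR library was left out. The estimates ran from -0.35 to 0.40 in siMYCN, from -0.34 to 0.43 in siHAND2 and from -0.16 to 0.35 in the direct contrast. The 95% intervals of the single genes stayed within -0.44 to 0.59, -0.46 to 0.63 and -0.27 to 0.44.

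**Figure D2:**
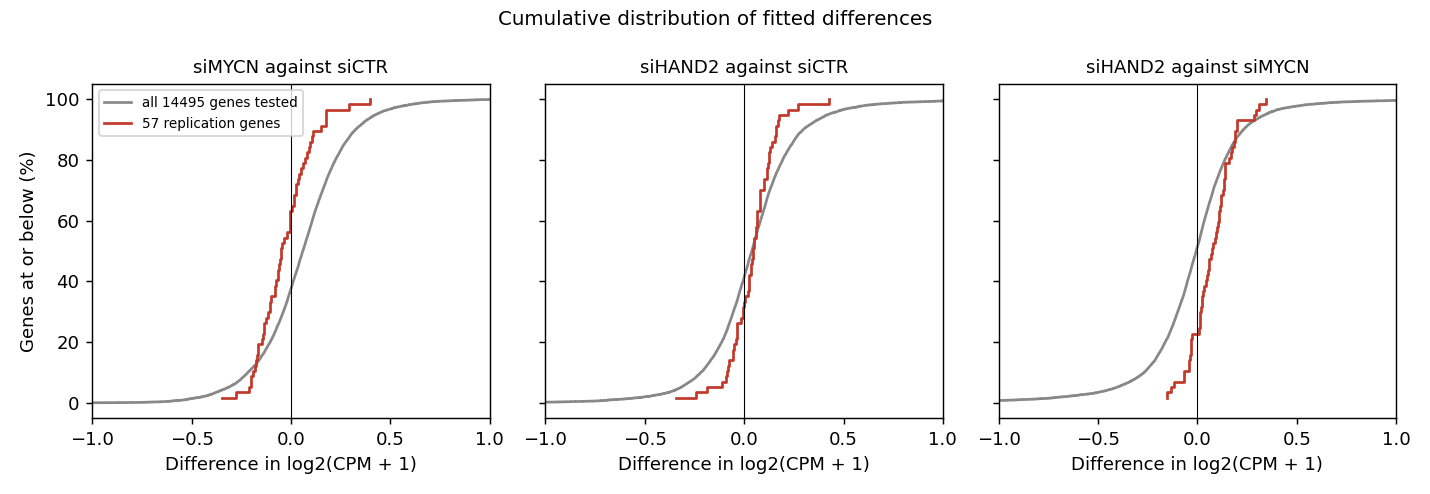
Cumulative share (percent) of genes at or below each difference in log2(CPM + 1), for the 57 replication genes (red) and all 14495 genes tested (grey), in the same 3 contrasts, drawn from -1 to 1. The red steps lie left of the grey curve over most of the first panel (medians -0.05 and 0.06) and right of it over most of the third (0.07 and -0.01), and they end within -0.35 to 0.43 in every panel.

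Origin licensing factors were described first. In siMYCN 3 of the 11 fell (ORC1, CDT1 and MCM7), in siHAND2 2 rose (CDC6 and MCM6) and CDT1 fell, and 5 were higher in siHAND2 than in siMYCN (ORC1, CDC6, MCM4, MCM6 and MCM7). These 3 of 11 are 27.3% in each knockdown, beside 35.9% of all genes called in siMYCN and 29.9% in siHAND2. All 3 siMYCN calls were falls, beside 11.4% of all genes lower. The 5 higher in the direct contrast are 45.5%, beside 11.4% of all genes. CDT1, which brings the helicase to the origin, was at 58.6, 59.9 and 55.0 CPM in siCTR, at 51.6, 50.04 and 51.3 in siMYCN, and at 51.9, 52.2 and 42.6 in siHAND2. All knockdown libraries lay below all siCTR libraries, and the third siHAND2 library was the lowest. The fall was -0.18 ± 0.07 (limma SE, n = 3 a group, adjusted p = 0.048) in siMYCN and -0.24 ± 0.07 (adjusted p = 0.011) in siHAND2. The siMYCN call was lost in 5 of the 9 left-out fits, without siCTR 1 or 2 or any siMYCN library, and also without a filter or an intensity trend. The siHAND2 call was lost without the second siCTR library and was -0.15 without the third siHAND2 library.

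GMNN (geminin), the inhibitor of CDT1, passed in no contrast. Its means were 56.9 ± 2.35 CPM (SD, n = 3) in the control group, 57.2 ± 1.27 with siMYCN and 55.5 ± 2.07 with siHAND2. The ratio of CDT1 to GMNN was 1.02 ± 0.0831, 0.893 ± 0.0342 and 0.881 ± 0.0883. ORC1, the large subunit of the origin recognition complex, was at 42.3, 41.1 and 40.7 CPM in siCTR and 36.5, 37.7 and 36.4 in siMYCN. It fell by 0.16 ± 0.05 (adjusted p = 0.023), a call lost in 4 left-out fits (siCTR 1, siCTR 2, siMYCN 1 and siMYCN 3). CDC6, the helicase loader, rose by 0.12 in siHAND2 (adjusted p = 0.041), with 96.9, 96.9 and 105 CPM against 92.4, 89.8 and 91.4, but 5 alternatives, both rescalings among them, and 6 left-out fits (any siCTR library, siMYCN 1, siMYCN 3 and siHAND2 3) ended that call.

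The helicase subunits MCM2 to MCM7 are among the most abundant transcripts of the machinery and did not move as a block. The called share of the 6 was 16.7% in each knockdown, beside 35.9% and 29.9% of all genes. The siMYCN call was a fall, beside 11.4% of all genes, and the siHAND2 call a rise, beside 18.1%. In the direct contrast the share was 50%, beside 26.9%, and all these calls were higher in siHAND2, beside 11.4% of all genes. In siMYCN 1 of the 6 fell, MCM7, with 507, 476 and 483 CPM against 543, 539 and 563 in siCTR. The groups did not overlap, and the difference was -0.17 ± 0.05 (adjusted p = 0.012). Quantile normalization or leaving out the third siCTR library ended the call. MCM7 overlaps AP4M1 on the opposite strand, where CPM was 10.5, 13.4 and 12.9 in the group means, and whether the counting used strand is not given in the sources used here.

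The other 5 subunits did not pass in siMYCN. MCM2 stood at -0.08, MCM3 at -0.07, MCM4 at -0.06, MCM5 at 0.09 and MCM6 at 0.04, which turned to -0.02 under both rescalings. MCM3 and MCM4 passed as lower under both rescalings. In siHAND2, MCM6 rose by 0.16 ± 0.04 (adjusted p = 0.0097), with 252, 231 and 237 CPM against 221, 215 and 209 in siCTR and no overlap. MCM5 stood at 0.12 (adjusted p = 0.062), which passed with the replicate block (adjusted p = 0.031), MCM4 at 0.08, MCM7 at 0.02, MCM2 at -0.05 and MCM3 at -0.06.

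Directly compared, MCM7 was higher in siHAND2 than in siMYCN by 0.19 ± 0.05 (adjusted p = 0.0070), with 596, 548 and 527 CPM in siHAND2. MCM4 was higher by 0.14 (346, 331 and 337 CPM against 314, 295 and 313), a call lost without the intensity trend, without the second siMYCN library or without the first siHAND2 library. MCM6 was higher by 0.12 (adjusted p = 0.049), lost in 3 alternatives and in 7 left-out fits (all except siHAND2 2 and siHAND2 3). MCM2, MCM3 and MCM5 differed by 0.02, 0.01 and 0.02, with intervals of -0.09 to 0.13, -0.07 to 0.09 and -0.07 to 0.12.

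**Figure D3:**
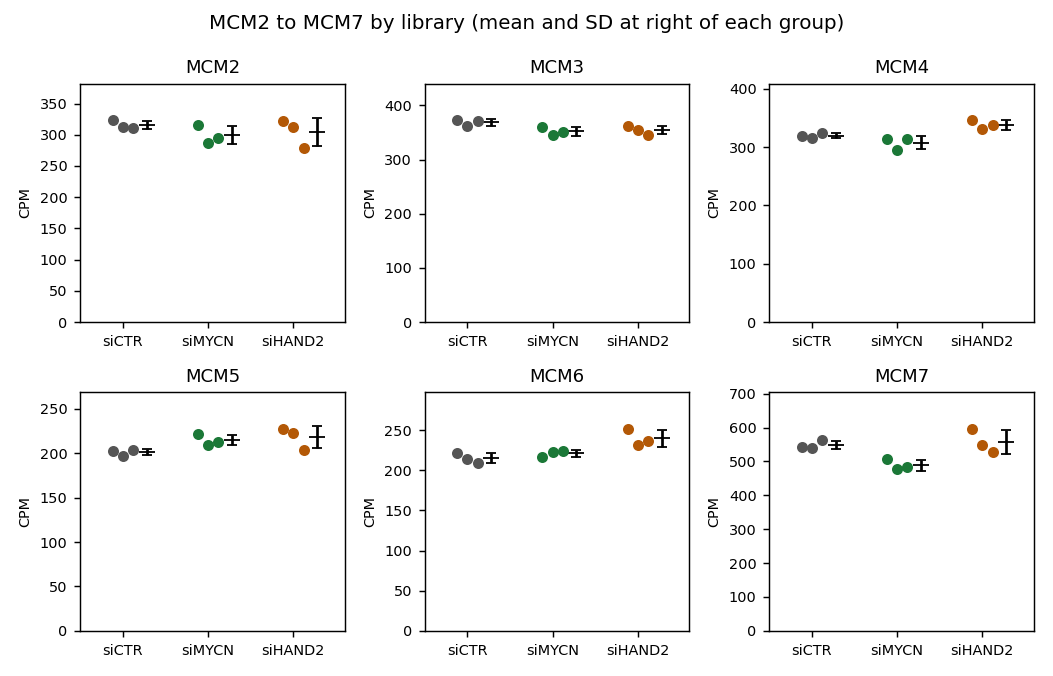
CPM of MCM2 to MCM7 in each of the 9 libraries (points), with the mean and SD at the right of each group of 3 and axes from 0. MCM7 in siMYCN (476 to 507 CPM) lies below siCTR (539 to 563 CPM), MCM6 in siHAND2 (231 to 252 CPM) lies above siCTR (209 to 221 CPM), and MCM2 groups overlap.

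Among the 8 genes of helicase activation and origin firing, DBF4 fell in siMYCN, CDC7 rose in siHAND2, and CDC45 and CDC7 were higher in siHAND2 than in siMYCN. The called share was 12.5% in each knockdown, beside 35.9% and 29.9% of all genes. The DBF4 fall stands beside 11.4% of all genes lower and the CDC7 rise beside 18.1% higher. In the direct contrast the called share was 25%, beside 26.9%, and both genes were higher, beside 11.4% of all genes. CDC7, the kinase subunit, was at 88.6, 81.5 and 86.0 CPM in siCTR, 76.5, 85.6 and 82.6 in siMYCN, with 96.5, 95.7 and 107 in siHAND2. All siHAND2 libraries were above all others, while siCTR and siMYCN overlapped. The rise was 0.22 ± 0.05 against siCTR (adjusted p = 0.0061) and 0.29 ± 0.05 against siMYCN (adjusted p = 8.6e-04). DBF4, its activating subunit, fell by 0.18 ± 0.06 in siMYCN (67.3, 73.1 and 74.4 CPM against 80.9, 77.4 and 85.2, adjusted p = 0.041). In siHAND2 DBF4 stood at -0.11, with 70.1, 71.3 and 84.3 CPM overlapping siCTR. The DBF4 call was lost without a filter, without the intensity trend and in 4 left-out fits (siCTR 1, siCTR 3, siMYCN 1 and siMYCN 2).

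CDC45, which joins the active helicase, was at 46.3, 46.0 and 45.9 CPM in siCTR, 46.3, 45.9 and 41.0 in siMYCN, with 52.95, 49.2 and 49.4 in siHAND2. It was higher in siHAND2 than in siMYCN by 0.18 ± 0.05 (adjusted p = 0.019), a call lost without the third siMYCN or the first siHAND2 library. The GINS subunits GINS1 to GINS4 and MCM10, a scaffold of the activated helicase, passed in no contrast. MCM10 stood at 0.10 in siHAND2 with all 3 libraries (122, 126 and 127 CPM) above siCTR (119, 112 and 119). GINS4, the least abundant of them, was at 15.0 to 18.8 CPM in the 9 libraries.

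The clamp and its loaders moved unequally. Of these 7 genes, 28.6% were called in siMYCN, 42.9% in siHAND2 and 14.3% in the direct contrast. The shares of all genes were 35.9%, 29.9% and 26.9%. The 2 siMYCN calls were falls, beside 11.4% of all genes lower. The direct call was higher in siHAND2, beside 11.4% of all genes. RFC3, a small subunit of the clamp loader, was at 93.3, 93.4 and 93.9 CPM in siCTR, 88.2, 89.7 and 87.7 in siMYCN, with 112, 111 and 116 in siHAND2. The siHAND2 libraries stood well above the rest, and the siMYCN libraries lay just below siCTR. RFC3 rose by 0.27 ± 0.04 in siHAND2 (adjusted p = 8.3e-05), stood at -0.08 in siMYCN (adjusted p = 0.14), and differed by 0.35 ± 0.04 between the groups (adjusted p = 5.1e-06), the largest direct difference among the 57. It shares its span with AL161891.1 on the same strand, which was at 8.81, 8.95 and 12.1 CPM in the group means, and how reads that fit both were assigned is not given in the sources used here.

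RFC5, another small subunit, fell by 0.21 ± 0.06 in siMYCN (39.7, 42.0 and 38.0 CPM against 47.5, 46.0 and 45.5, adjusted p = 0.0082). It overlaps WSB2 on the opposite strand, whose group means were 84.6, 106 and 88.3 CPM. RFC1, RFC2 and RFC4 passed in no contrast. PCNA, the clamp, was at 319, 316 and 338 CPM in siCTR, 330, 362 and 338 in siMYCN, with 358, 341 and 386 in siHAND2. It rose by 0.16 ± 0.05 in siHAND2 (adjusted p = 0.027), but not after either rescaling, without a filter, without the intensity trend or without any of siCTR 1, siCTR 2 and siHAND2 3.

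DSCC1, part of the alternative loader that serves sister chromatid cohesion, fell in both groups, by 0.20 ± 0.06 in siMYCN (adjusted p = 0.018) and by 0.18 ± 0.06 in siHAND2 (adjusted p = 0.035). Its siCTR libraries held 41.2, 44.1 and 42.3 CPM, its siMYCN libraries 35.9, 38.7 and 36.0, and its siHAND2 libraries 35.7, 35.1 and 41.4, the last overlapping siCTR. Left-out fits ended the siMYCN call 3 times (siCTR 2, siMYCN 1 and siMYCN 3) and the siHAND2 call 5 times (any siCTR library and siHAND2 1 and 2). The siHAND2 call also ended without a filter or an intensity trend.

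Of the 10 polymerase and primase genes, 4 fell in siMYCN (POLA1, POLD2, POLE2 and WDHD1) and POLE rose. These are 5 of 10 beside 35.9% of all genes called, and the 4 falls stand beside 11.4% of all genes lower. In siHAND2 POLE rose and POLD2 fell, 2 of 10 beside 29.9%. POLA1, PRIM1, PRIM2 and WDHD1 were higher in siHAND2 than in siMYCN, 4 of 10 beside 11.4% of all genes. POLD2 was at 103, 110 and 109 CPM in siCTR, 95.4, 84.2 and 86.1 in siMYCN, with 86.6, 88.3 and 78.8 in siHAND2. Every knockdown library lay below every siCTR library. POLD2 fell by 0.28 ± 0.06 in siMYCN (adjusted p = 0.0010) and by 0.34 ± 0.06 in siHAND2 (adjusted p = 2.0e-04), and the direct difference was -0.07 with an interval of -0.18 to 0.05.

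The partners of POLD2 gave other values. POLD1, the catalytic subunit of polymerase delta, stood at -0.14 in siMYCN (adjusted p = 0.10) and -0.08 in siHAND2, and POLD3 at 0.04 and 0.08. POLE, the catalytic subunit of polymerase epsilon, rose by 0.18 ± 0.05 in siMYCN (147, 148 and 139.7 CPM against 126, 122 and 137, adjusted p = 0.0084) and by 0.14 ± 0.05 in siHAND2 (145, 143 and 137 CPM, adjusted p = 0.032). Both POLE calls ended under both rescalings, the siMYCN call also without siCTR 2, and the siHAND2 call also without the intensity trend and without siCTR 1, siCTR 2, siHAND2 1 or siHAND2 2. POLE2, the accessory subunit of the same enzyme, fell by 0.17 ± 0.06 in siMYCN (adjusted p = 0.044), at 22.3, 21.7 and 24.1 CPM in siCTR and 19.2, 20.9 and 20.01 in siMYCN, and 5 left-out fits (siCTR 1, siCTR 3, siMYCN 1, siMYCN 3 and siHAND2 2) and the fit without a filter ended that call.

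WDHD1, which ties polymerase alpha to the helicase, was at 89.4, 86.6 and 91.0 CPM in siCTR, 75.0, 77.1 and 80.1 in siMYCN, with 86.1, 84.0 and 97.5 in siHAND2. It fell by 0.20 ± 0.05 in siMYCN (adjusted p = 0.0086) and was higher by 0.20 ± 0.05 in siHAND2 than in siMYCN (adjusted p = 0.011, lost without the first siMYCN library). PRIM2, the large primase subunit, was at 40.2, 38.4 and 41.2 CPM in siMYCN, with 45.2, 45.4 and 47.4 in siHAND2, a direct difference of 0.20 ± 0.05 (adjusted p = 0.0064). PRIM1 overlaps the more abundant NACA on the same strand. Group means in siCTR, siMYCN and siHAND2 were 65.3, 59.2 and 66.8 CPM for PRIM1 and 532, 418 and 499 for NACA. How reads that fit both were assigned is not given in the sources used here. POLA1, the catalytic subunit of polymerase alpha, fell by 0.11 ± 0.04 in siMYCN (adjusted p = 0.038), a call that ended without the intensity trend and without any 1 of the siCTR or siMYCN libraries.

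No gene among RPA1, RPA2, RPA3 (the single-strand binding protein), FEN1 (the flap endonuclease) and LIG1 (the ligase of Okazaki fragments) was called by limma against siCTR in either group, and none had an unadjusted p below 0.05. Against siCTR, 35.9% of all genes were called in siMYCN and 29.9% in siHAND2. RPA2 stood at -0.10 in siMYCN and passed as lower under both rescalings. It was higher in siHAND2 (47.6, 45.9 and 47.6 CPM) than in siMYCN (40.4, 44.1 and 41.8) by 0.16 ± 0.05 (adjusted p = 0.027), lost in 3 left-out fits (siMYCN 1, siMYCN 3 and siHAND2 1) and in the fit of these groups alone. FEN1 was at 165, 166 and 169 CPM in siCTR, 177, 164 and 178 in siMYCN, with 181, 174 and 168 in siHAND2, and its intervals were -0.04 to 0.14 and -0.03 to 0.16.

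Among the 4 fork protection and S-phase control genes, CLSPN and TIMELESS rose and TIPIN fell in siMYCN, and CLSPN rose in siHAND2. The called share was 75% and 25%, beside 35.9% and 29.9% of all genes. In the direct contrast it was 50%, beside 26.9%. CLSPN was at 49.6, 48.4 and 51.6 CPM in siCTR, 60.9, 59.9 and 63.4 in siMYCN, with 58.3, 57.9 and 53.1 in siHAND2. All knockdown libraries exceeded all siCTR libraries, with the third siHAND2 library the closest to them. CLSPN rose by 0.29 ± 0.05 in siMYCN (adjusted p = 2.8e-04) and by 0.17 ± 0.05 in siHAND2 (adjusted p = 0.015), the second of which ended under median-ratio rescaling and without siCTR 1, siCTR 2, siHAND2 1 or siHAND2 2.

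TIMELESS and TIPIN form 1 complex at the fork, and their transcripts went opposite ways in siMYCN. TIMELESS rose by 0.18 ± 0.04 (164, 155 and 153 CPM against 141, 137 and 139, adjusted p = 0.0035). TIPIN fell by 0.19 ± 0.07 (12.5, 12.04 and 11.65 CPM against 13.9, 13.2 and 14.6, adjusted p = 0.037), which ended without a filter and in 4 left-out fits (siCTR 1, siCTR 3, siMYCN 2 and siMYCN 3). TIMELESS was lower in siHAND2 (146, 139 and 139 CPM) than in siMYCN, with a difference of -0.16 ± 0.04 (adjusted p = 0.011). DTL, the adaptor that targets CDT1 for degradation, passed in the direct contrast at 0.11 (adjusted p = 0.041), a call that ended with any 1 of the 9 libraries left out, without a filter, in the fit of these groups alone and without the intensity trend.

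Of the 5 chromatin genes, ATAD2 rose in siMYCN, NASP rose in siHAND2, and HELLS was higher in siHAND2 than in siMYCN. The called share was 20% in each contrast, beside 35.9%, 29.9% and 26.9% of all genes. NASP, a histone H3 and H4 chaperone, was at 239, 235 and 236 CPM in siCTR and 280.4, 259 and 255 in siHAND2, a rise of 0.16 ± 0.04 (adjusted p = 0.0083). ATAD2, a bromodomain ATPase, rose by 0.15 ± 0.04 in siMYCN (217, 226 and 230.0 CPM against 209, 196 and 201, adjusted p = 0.013), but stood at 0.09 under both rescalings, where it did not pass, nor did it without siCTR 2 or siMYCN 3. HELLS, a remodelling helicase, was at 93.5, 88.1 and 94.9 CPM in siCTR, 77.6, 86.2 and 89.7 in siMYCN, with 92.2, 108 and 112 in siHAND2. Its siHAND2 and siMYCN libraries did not overlap, the direct difference was 0.30 ± 0.07 (adjusted p = 0.0035), and neither group passed against siCTR, although siHAND2 did with the replicate block (adjusted p = 0.013). CHAF1A and CHAF1B, of the histone chaperone CAF-1, passed in no contrast.

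UNG carried the largest fall in siMYCN. It was at 127, 126 and 120.1 CPM in siCTR, 99.4, 98.2 and 94.7 in siMYCN, with 122, 123 and 118 in siHAND2. The siMYCN libraries lay below all others, while siCTR and siHAND2 overlapped. UNG fell by 0.35 ± 0.04 in siMYCN (adjusted p = 9.6e-06), stood at -0.04 in siHAND2 with an interval of -0.13 to 0.05, and was higher in siHAND2 than in siMYCN by 0.31 ± 0.04 (adjusted p = 3.4e-05). Across the alternatives and left-out libraries the siMYCN difference ran from -0.41 to -0.33. The row spans chr12:109097597-109110992 (coordinates of the file, which match GRCh38) and overlaps no other gene of the table.

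EXO1, an exonuclease of mismatch repair, fell by 0.15 ± 0.05 in siMYCN (adjusted p = 0.023), with 82.3, 82.9 and 79.2 CPM against 88.6, 87.3 and 95.3, lost without the intensity trend, siCTR 3 or siMYCN 3. The helicases BRIP1 and BLM passed in no contrast. BLM was at 75.2, 74.3 and 77.5 CPM in siCTR, 73.4, 73.5 and 74.8 in siMYCN, with 76.1, 78.3 and 82.4 in siHAND2.

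The E2F factors include the activators E2F1 and E2F2 and the repressor-type E2F8. E2F8, the least abundant member, was at 5.72, 6.10 and 7.45 CPM in siCTR, 8.50, 8.59 and 9.12 in siMYCN, with 8.45, 8.72 and 9.71 in siHAND2. Every knockdown library exceeded every siCTR library. E2F8 rose by 0.40 ± 0.09 in siMYCN (adjusted p = 0.0033) and by 0.43 ± 0.09 in siHAND2 (adjusted p = 0.0023), with a direct difference of 0.03 and an interval of -0.16 to 0.23. On the log2(CPM + 1) scale the change of so low a gene is understated.

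E2F1 was at 103, 100.5 and 92.4 CPM in siCTR, 119, 109.8 and 107 in siMYCN, with 106.5, 102 and 96.4 in siHAND2. It rose by 0.18 ± 0.05 in siMYCN (adjusted p = 0.018), a call lost under both rescalings, without the intensity trend and without siCTR 3 or siMYCN 1. E2F2 passed in no contrast.

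**Figure D4:**
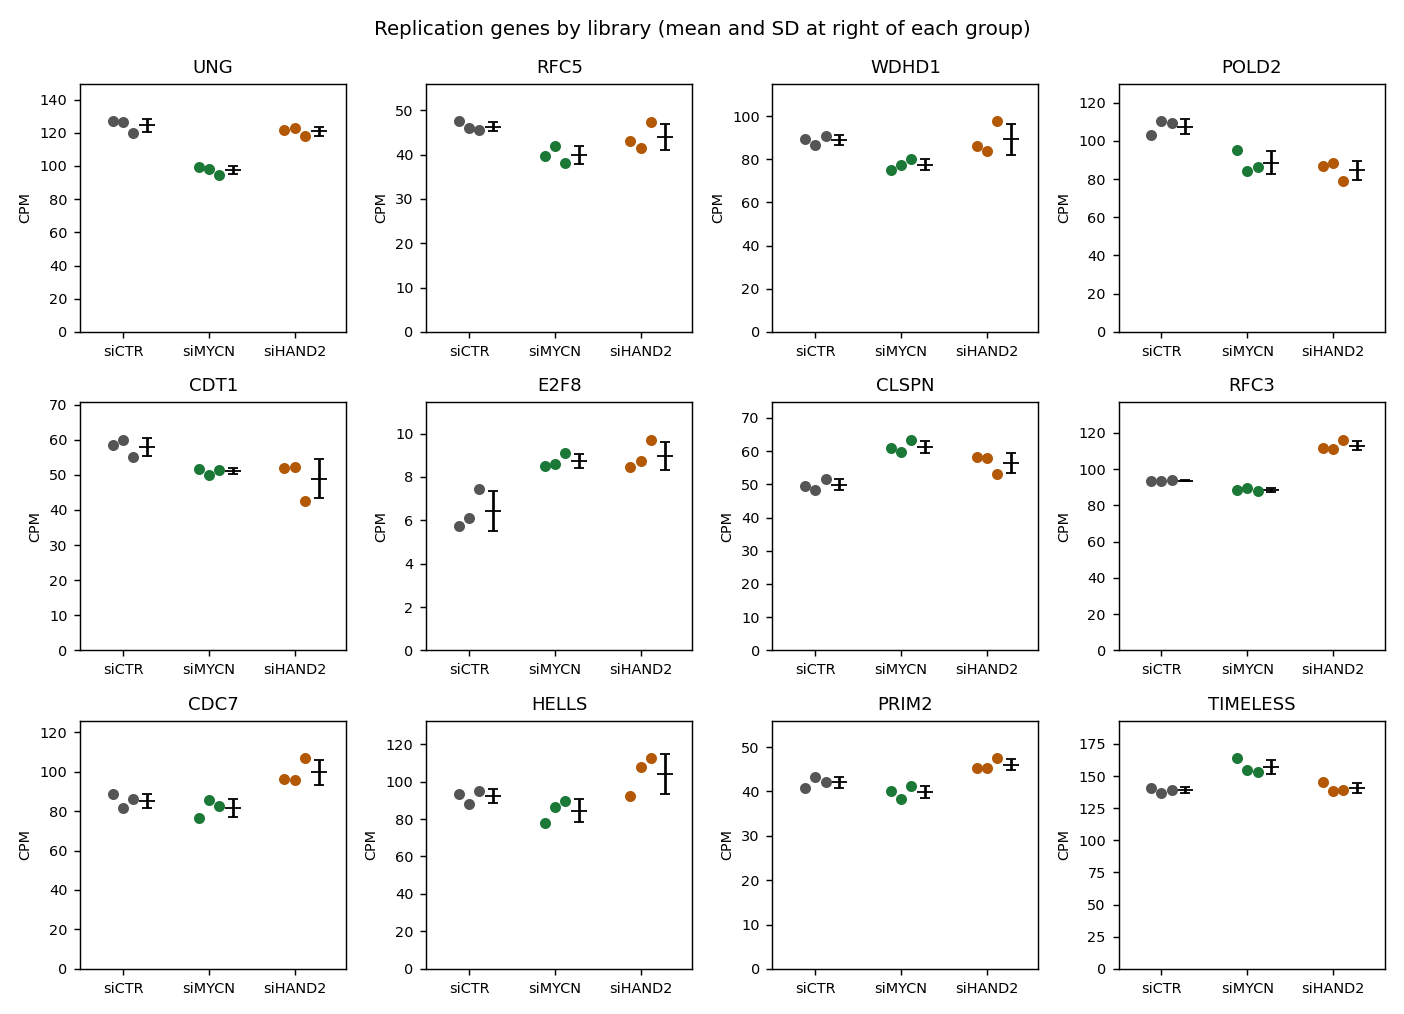
CPM in each of the 9 libraries (points) with the mean and SD at the right of each group of 3, for 12 replication genes, axes from 0. UNG in siMYCN (94.7 to 99.4 CPM) lies below siCTR and siHAND2, RFC3 in siHAND2 (111 to 116 CPM) lies above both other groups, and POLD2 in siMYCN and siHAND2 (78.8 to 95.4 CPM) lies below siCTR (103 to 110.1 CPM).

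The file places other genes with large differences at chr7:44114681-44124358 for POLD2, chr13:33818069-33966558 for RFC3, chr1:91500851-91525764 for CDC7, chr1:35720218-35769978 for CLSPN and chr11:19224063-19241620 for E2F8. POLD2, CDC7 and E2F8 overlap no other gene of the table. Of the 57 genes, 30 overlap another row and 22 do so on the opposite strand.

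Other genes of DNA synthesis and the cell cycle are given from lists chosen by function. Of 49 further replication factors, 6 rose and 5 fell in siMYCN, 4 rose and 1 fell in siHAND2, and the medians were -0.0045 and 0.035. The called share was 22.45% in siMYCN, beside 35.9% of all genes, and 10.2% in siHAND2, beside 29.9%. In the direct contrast 7 of the 49 were higher in siHAND2 (11.4% of all genes) and 2 lower (15.5%). The called share there was 18.4%, beside 26.9%, and the median 0.036, beside -0.0063 over all genes. Under median-ratio rescaling the siMYCN counts were 1 and 11, beside 2443 and 2333 of all 14495 genes. Under quantile normalization they were 0 and 10, beside 2333 and 2395. The direction of this list in siMYCN thus turned with the scaling. POLE3, a histone-fold subunit of polymerase epsilon, fell in both, by 0.26 (adjusted p = 2.0e-04) and 0.23 (adjusted p = 8.6e-04). ATR, the checkpoint kinase upstream of claspin, fell by 0.22 in siMYCN (44.02, 51.0 and 49.5 CPM against 54.2, 55.8 and 58.5), stood at 0.07 in siHAND2, and was higher by 0.29 in the direct contrast (adjusted p = 0.0013). The siMYCN call of ATR ended without the first siMYCN library. POLD4, the small subunit of polymerase delta, rose by 0.35 in siMYCN and by 0.52 in siHAND2, from 2.14 ± 0.326 CPM to 3.01 ± 0.274 and 3.51 ± 0.278, and its siMYCN call ended without a filter, under quantile normalization and in 4 left-out fits (siCTR 1, siCTR 2, siMYCN 1 and siMYCN 3).

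Of 10 genes of deoxynucleotide supply, 2 rose and 3 fell in siMYCN, and 1 rose and 2 fell in siHAND2. These are 5 of 10 beside 35.9% of all genes and 3 of 10 beside 29.9%, the second at about the share of all genes. NME1 and NME2, nucleoside diphosphate kinases, fell by 0.42 and 0.36 in siMYCN and by 0.29 and 0.28 in siHAND2. These paralogs are near-identical, so how the counting divided their reads is uncertain. RRM2, the regulatory subunit of ribonucleotide reductase, was chosen after its values were seen, and rose by 0.12 in siMYCN (adjusted p = 0.025) and by 0.26 in siHAND2 (adjusted p = 8.6e-05), the first of which ended under both rescalings, without the intensity trend and without siCTR 2, siCTR 3, siMYCN 1 or siMYCN 3.

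Of 21 regulators of E2F and RB, 2 rose and 4 fell in siMYCN, and 4 rose and 2 fell in siHAND2. That is 28.6% of the list called in each, beside 35.9% and 29.9% of all genes. Under either rescaling 1 rose and 6 fell in siMYCN, while in siHAND2 3 rose and 4 fell under median-ratio rescaling and 3 rose and 3 fell under quantile normalization, so the balance in siHAND2 moved with the scaling. CCND1 (cyclin D1) rose by 0.47 (adjusted p = 1.2e-05) and 0.49 (adjusted p = 8.9e-06), from 994 ± 46.1 CPM to 1384 ± 96.1 and 1394 ± 90.1. CDK6, a kinase partner of cyclin D, fell by 0.27 and 0.31, and TFDP2, a dimer partner of E2F proteins, by 0.30 and 0.15, the last lost without siCTR 2 or siHAND2 1. Of 18 tested CDK inhibitors and p53 targets, 6 rose and 2 fell in siMYCN, and 5 rose and 1 fell in siHAND2, 44.4% and 33.3% of the list beside 35.9% and 29.9% of all genes. CDKN2D, an inhibitor of CDK4 and CDK6, was at 13.6, 14.5 and 12.7 CPM in siCTR, 27.6, 25.1 and 26.8 in siMYCN, with 15.2, 15.4 and 14.8 in siHAND2. It rose by 0.91 in siMYCN (adjusted p = 7.0e-08) and the direct difference of siHAND2 from siMYCN was -0.77 (adjusted p = 1.6e-07).

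TP53INP1, a p53 target, rose by 0.53 and 0.61. CDKN1A (p21), also a p53 target, stood at 0.00 in siMYCN and rose by 0.23 in siHAND2 (adjusted p = 0.0062). Of 35 mitosis genes, 1 rose and 4 fell in siMYCN, and 1 rose and 3 fell in siHAND2, so that 14.3% and 11.4% of the list were called, beside 35.9% and 29.9% of all genes. With median-ratio rescaling the falls numbered 9 and 7, and with quantile normalization 9 and 5. AURKB, a chromosomal passenger kinase, fell by 0.21 and 0.15, BIRC5 (survivin), of the same complex, fell by 0.17 in siMYCN and stood at -0.07 in siHAND2, and PLK1 fell by 0.16 and 0.24. HMMR, a spindle protein, fell by 0.20 in siHAND2 (adjusted p = 0.026) and stood at -0.07 in siMYCN. Without the intensity trend AURKB and HMMR lost their siHAND2 calls and PLK1 its siMYCN call. The AURKB call also ended without siCTR 2, siCTR 3, siHAND2 2 or siHAND2 3, that of HMMR without any siCTR library, siHAND2 1 or siHAND2 2, and that of PLK1 without siCTR 1, siCTR 2, siMYCN 2 or siMYCN 3.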

How the data were processed

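Total RNA of LAN5 cells was sequenced in 9 libraries. The deposited table gives CPM per gene and library, in which each column sums to 1000002.4 to 1000002.6 with a constant of 1e-04 in every value. Per the submitters' processing notes, STAR 2.5.1 and Partek were used with hg19 (GRCh37), but the coordinates of the file match GRCh38: of 18215 symbols found in a RefSeq GRCh38 table, 8209 had the same start and 91.4% a start within 5000 bp. The rule for reads that fit several genes and the use of strand are not given in the sources used here.

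A gene entered the tests when 3 or more libraries held 1 CPM or more of it (14495 tested, 10589 not). Values as log2(CPM + 1) of the 9 libraries went into 1 fit by limma 3.58.1 under R 4.3.3 (intensity trend, 10.1 prior degrees of freedom), with two-sided tests and Benjamini-Hochberg adjustment over all genes. Differences are on the log2(CPM + 1) scale, which understates the change of low genes, and percentages of a group compare CPM means. Errors are SDs over 3 libraries or limma SEs. In each library 79.8% to 81.3% of low values were whole multiples of the smallest step (within 0.02 of a step), too few for a count test, so the step gave only the depth. At 1 CPM it gives 21.1 to 32.7 reads, a counting error of 17.5% to 21.8%. Coordinates count from 1, with the end 1 base before the stop in the file. The script was tested on simulated data with about 200 changed genes. It recovered 29% of changes of 0.3 on the log2 scale, 75.9% of those of 0.5 and 97.5% of those of 1. A small change can therefore go uncalled. Far fewer genes changed there than were called here, so these rates may not apply to the present data. They were also not estimated for the replication genes alone. The median SE of those genes in siMYCN was 0.0505, beside 0.0685 over all genes tested. Some of their differences below 0.3 were called, such as TIMELESS at 0.18 in siMYCN, while others, such as POLD1 at -0.14, were not.

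The same replicate numbers appear in each group, and the labels do not say what they share. Deviations from the group means correlated at 0.208, 0.102 and 0.216 between same-numbered siMYCN and siCTR libraries. Between siHAND2 and siCTR the values were 0.154, 0.121 and 0.266, and each value of these contrasts was over 0.1. Between siHAND2 and siMYCN the values were 0.434, -0.129 and 0.245. Some libraries of unlike number also correlated. The value was 0.179 for siCTR 2 with siHAND2 1, and 0.219 for siMYCN 2 with siHAND2 3. The numbers therefore do not clearly mark pairs. The main fit held no block, and the alternative with a block was run for every contrast.

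The members and lists were chosen with earlier results of these data known. Named are the siRNA targets, MCM2 to MCM7, in each contrast up to 8 rises and 8 falls whose groups do not overlap, the member of smallest p in each role group against siCTR, and 2 genes of each further list. A few others are named where a count or a group needs them. Alternatives were pseudocounts of 0.1 and 5, no filter or 5 CPM as the minimum, rescaling by median ratios, normalization of quantiles, only the groups of a contrast, no intensity trend, a replicate block and each library left out. FAP and some leukocyte and epithelial markers were not analysed here.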

Additional observations from a re-analysis of the deposited data

How the results depend on the processing

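Pseudocounts of 0.1 and 5 left every count of called replication genes as it was. Calls held under all alternatives and left-out libraries for 7 of 19 genes in siMYCN, 6 of 12 in siHAND2 and 6 of 18 in the direct contrast, and no called gene reversed.

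Rises in siMYCN numbered 6, and 3 under median-ratio rescaling and under quantile normalization, while falls went from 13 to 24 and 22. Rises in siHAND2 went from 9 to 5 under median-ratio rescaling and to 14 with the replicate block. Genes higher in siHAND2 than in siMYCN went from 17 to 11 with these groups alone and without the intensity trend, and those lower from 1 to 3 with the replicate block. Over all genes, siMYCN rises went from 3556 to 2443 and 2333, and falls from 1653 to 2333 and 2395. Rises of all genes in siHAND2 went from 2630 to 2001 and 3143. In the direct contrast all genes higher went from 1650 to 1421 and 1423, and those lower from 2242 to 2609. The cause was not tested. In the contrasts against siCTR the replicate block ended no call among the 57 and added the 7 named in the report. In the direct contrast, where same-numbered libraries did not all correlate above 0, it added E2F1 and GINS3 as lower. It added RFC4 and RPA3 there as higher, and ended no call. In all, 6 of 9 libraries correlated best with their own number.

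Leaving out 1 library gave 4 to 7 rises and 6 to 15 falls in siMYCN, 5 to 9 rises and 1 to 4 falls in siHAND2, and 8 to 15 higher and 0 to 2 lower in the direct contrast (0 without the first siMYCN library). The shares of all genes called moved as well, over 27.8% to 40.7%, 21.3% to 29.85% and 20.2% to 27.4%.

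Reversals were seen for helicase subunits that were not called. MCM6 in siMYCN was -0.01767 under median-ratio rescaling and -0.02157 under quantile normalization, and MCM7 in siHAND2 was -0.01847 under median-ratio rescaling. Over the left-out libraries, MCM2 in siHAND2 ran from -0.09574 to 0.007481 and MCM7 from -0.02758 to 0.06123. In the direct contrast MCM2 ran from -0.01781 to 0.08541, MCM3 from -0.004591 to 0.02841 and MCM5 from -0.007494 to 0.07069, and without siMYCN replicate 2 MCM2 was -0.003814 and MCM3 -0.003571.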
